A study of Homo sapiens with 2 samples.

Results

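The cytosolic ribosomal protein genes were followed in single cells of CHLA9 and TC71, established lines of Ewing sarcoma. Members were taken by symbol alone: every RPL or RPS symbol made of a number with an optional letter and digit, together with RPLP0, RPLP1, RPLP2 and RPSA, without the Y-linked copies, RPS27L and the RPS6 kinases. This gave 83 of the 33538 genes in the deposited tables. They comprised 43 genes of the large subunit, 31 of the small subunit, 3 of the acidic stalk and 6 paralogs with an L after the number, which are described as a group of their own.

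Libraries of single cells were prepared from both with droplet 3' chemistry, in which each captured RNA molecule carries a unique molecular identifier (UMI) and is counted once. The medium was IMDM with insulin-transferrin-selenite and 20% serum for CHLA9 and RPMI-1640 with 10% serum for TC71, both held antibiotics, and neither line had a further treatment. Each line was 1 library, and CHLA9 was sequenced again on a second instrument, so line, medium and sequencing cannot be told apart, and every difference between the lines below is a difference between 2 libraries with no replicate and no test. The third line and the xenografts of the study were not analysed here.

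A ribosome is built from ribosomal RNA and about one copy of each ribosomal protein, made in the cytosol, imported into the nucleolus and assembled there. The mRNAs of these proteins begin with a terminal oligopyrimidine (TOP) tract, a C at the first base followed by more pyrimidines, through which growth signals control their translation as a group. They are among the most abundant mRNAs of growing cells. A number of the genes have paralogs with restricted expression in germ cells or muscle, and a few of the proteins, such as RPL5, RPL11 and RPL23, also bind MDM2 when assembly is disturbed.

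The bases around the RefSeq transcription start show the tract that most members share. A promoter of 300 bases (250 before and 50 after the start) was held for 66 of the 83 members among 27305 genes. The start base was a C in 47 of the 66 members (71.2%) against 14.99% of all promoters, and a C with at least 4 pyrimidines after it stood in 43 members (65.2%) against 4.04%. A run of at least 5 pyrimidines across the start was found in 45 members (68.2%) against 9.80%. The following 40 bases, 20 on either side of the point before the start base, are printed on the transcribed strand with that run in capitals, for RPL39 and RPL22, whose paralogs behaved differently, for the paralogs RPL22L1 and RPL26L1, and for members that lay far from the rest between the lines. All are on GRCh38.p14.
RPL39 (chrX:119791611-119791650, minus strand): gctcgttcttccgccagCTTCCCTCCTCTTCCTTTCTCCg
RPL22 (chr1:6199576-6199615, minus strand): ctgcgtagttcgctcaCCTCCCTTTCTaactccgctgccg
RPL22L1 (chr3:170870176-170870215, minus strand): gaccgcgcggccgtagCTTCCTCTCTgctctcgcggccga
RPL13A (chr19:49487588-49487627, plus strand): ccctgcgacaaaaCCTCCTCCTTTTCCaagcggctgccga
RPS10 (chr6:34426050-34426089, minus strand): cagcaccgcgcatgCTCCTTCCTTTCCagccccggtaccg
RPL35 (chr9:124861938-124861977, minus strand): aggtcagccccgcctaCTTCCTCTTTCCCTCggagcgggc
RPS21 (chr20:62387083-62387122, plus strand): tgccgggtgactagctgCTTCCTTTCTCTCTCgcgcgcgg
RPS26 (chr12:56041898-56041937, plus strand): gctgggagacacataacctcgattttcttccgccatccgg
RPL27 (chr17:42998399-42998438, plus strand): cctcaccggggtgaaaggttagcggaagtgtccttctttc
RPL26L1 (chr5:172958709-172958748, plus strand): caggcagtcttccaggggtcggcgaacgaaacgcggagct

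Genes that fell off the common trend in either direction were found among those with a run (RPL13A lower, RPS10 and RPS21 higher in TC71). They were also found among those without one at the RefSeq start (RPL27 lower, RPS26 higher). In the printed windows of RPL27 and RPS26, pyrimidines lie further downstream. Whether the cells use the RefSeq start was not tested, so a gene without a run here may still carry a tract. Of the 65 members with both a promoter and enough UMIs, the 45 with a run had a median log2 difference of 0.43 (TC71 over CHLA9) and the 20 with a shorter or no run one of 0.16. Over the whole 300 bases, on both strands, CCGGAAG was present in 22 of 66 members (33.3%) against 10.7% of all promoters. TATAAA was present in 7 (10.6%) against 12.0% and GGGCGG in 35 (53.0%) against 44.6%. Of these 3 motifs CCGGAAG thus had the largest excess, and a match says only that these letters lie in the window.

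A barcode counted as a cell from 5000 UMIs and 2000 genes upward, provided that mitochondrial UMIs were no more than 15% of its total. CHLA9 kept 4524 of 5077 barcodes with 174975302 UMIs, and TC71 1729 of 8468 with 58355173. The median kept cell had 34656 UMIs in CHLA9 and 33370 in TC71. The lines shared 3 kept barcodes. Of 7 Ewing sarcoma markers, 6 passed 10 counts per 1000000 UMIs (CPM) in CHLA9, where NKX2-2 stood at 9.89 CPM, and 7 did in TC71. The 9 markers of other cells summed to 80.3 CPM in CHLA9 and 22.2 CPM in TC71, mostly from COL1A1 and COL3A1, with 2 and 4 of the 9 at 0.

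Ribosomal protein genes took a large part of the UMIs of both lines, and the larger part in TC71. The 83 genes held 29554865 UMIs or 16.9% of the CHLA9 total (95% Clopper-Pearson interval 16.9% to 16.9%) and 11508380 or 19.7% of the TC71 total (19.7% to 19.7%). These intervals cover counting error only. Per cell, the share ran from 9.37% through a median of 16.9% to 33.6% over the 4524 CHLA9 cells, with quartiles of 15.5% and 18.3%. In TC71 it ran from 8.19% through 19.8% to 34.1% over 1729 cells, with quartiles of 18.04% and 21.5%. The ranges over cells overlapped widely, and the median of TC71 lay above the upper quartile of CHLA9. Without mitochondrial UMIs in the total the shares were 18.3% and 21.7%.

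The excess of TC71 was wider for the small subunit than for the large one. Large subunit genes took 8.87% of UMIs in CHLA9 and 9.74% in TC71, whereas small subunit genes took 7.12% and 8.79%. The ratio of large to small subunit UMIs was therefore 1.25 in CHLA9 and 1.11 in TC71, with cell quartiles of 1.22 to 1.29 and 1.08 to 1.15. The 3 stalk genes, whose proteins form the flexible arm that recruits elongation factors, took 0.840% and 1.14%. The 6 L paralogs together took 0.0610% and 0.0612%. Across the cells of a library, the shares of the 2 subunits rose and fell together (Spearman's rho 0.934 over 4524 CHLA9 cells and 0.932 over 1729 TC71 cells, with the depth and the denominator of each cell shared by both).

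Between the lines, 81 of the 83 members had at least 10 CPM in one line and were compared by the log2 of their CPM in TC71 over CHLA9. More than 1.5-fold higher in TC71 were 21 members (25.9%), where 16.3% of all 9236 genes compared were. More than 1.5-fold lower were 6 members (7.41%), where 31.1% of all genes were, so that 33.3% of members and 47.3% of all genes passed the fold in either direction. The median member differed by 0.32 (quartiles -0.07 and 0.59, SD over members 0.53) and the median gene by -0.21 (SD 1.53). With the floor raised to 100 CPM in either line, the share of genes higher was 18.6% and lower 24.8%, with 20 and 6 of 79 members. Members were above 0 in 55 of 81, in 61 of 81 when scaled to the UMIs outside the members and mitochondrial genes, and in 51 of 81 when scaled by the median ratio of genes over 100 CPM.

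By subunit, the calls were uneven. Large subunit genes gave 11 higher and 5 lower of 43 with a median of 0.25, and small subunit genes gave 7 higher and 0 lower of 31 with a median of 0.39. Of the 3 stalk genes, RPLP1 (3389.8 CPM in CHLA9 and 5512 in TC71, log2 0.70) and RPLP2 (1287 and 2255 CPM, log2 0.81) were among those called, while RPLP0, which anchors them to the subunit, had 3719 and 3590.5 CPM (log2 -0.05). Of the 4 L paralogs compared, 1 was called higher and 1 lower.

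The order of abundance was largely kept, with a Spearman's rho of 0.828 between the CPM of the 83 members in the 2 libraries. This included RPL3L and RPL10L, which were under the floor of 10 CPM in both. A UMI counts a molecule once whatever its length, so CPM of different genes can be set side by side, apart from unequal capture. RPS2, of the small subunit, was highest on average (6139 CPM in CHLA9 and 5284 in TC71). It was followed by RPS18 (4080.3 and 6664 CPM), RPLP1 and RPL11 (4274 and 4495 CPM). RPS18 was first in TC71, with RPLP1 and RPL13 (2975 and 5351 CPM) after it, and RPS2 came next. RPL11, one of the proteins that bind MDM2 as part of the 5S particle, thus differed little between the libraries, and its partner RPL5 had 2438 and 3464.5 CPM (log2 0.51).

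**Figure D1:**
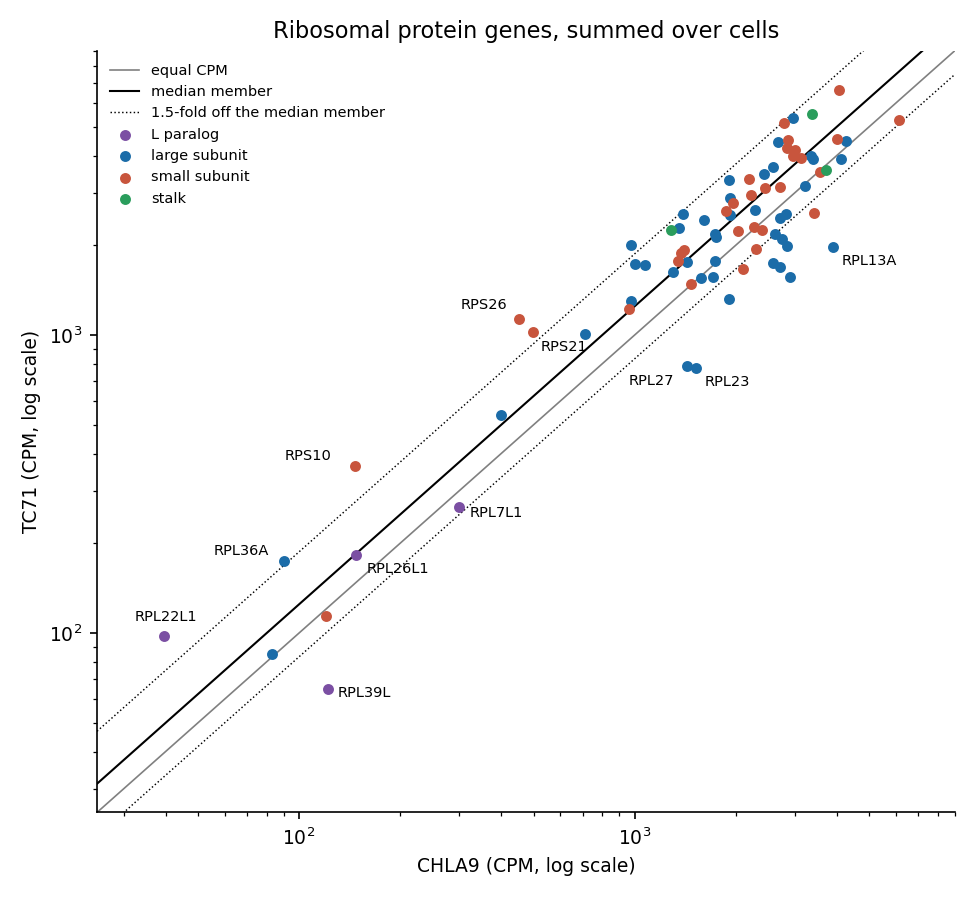
Summed level of each ribosomal protein gene in CHLA9 (x axis) and TC71 (y axis), both as CPM on log scales, coloured by group; the solid line marks the median member (log2 difference 0.32) and the dotted lines 1.5-fold on either side of it. RPL22L1, RPS10 and RPS26 lie above the band and RPL39L, RPL13A, RPL23 and RPL27 below it, and RPL3L and RPL10L, under 1 CPM in both lines, lie outside the axes.

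Set against the median member, 19 of 81 were more than 1.5-fold off: 6 higher (7.41%, against 9.85% of all genes measured from the same point) and 13 lower (16.0%, against 47.1%). In either direction these were 23.5% of members and 57% of genes. Close to the limit lay RPL8 (-0.59 off the median member) among the lower, and RPL36A (0.63, inside the count) and RPS27A (0.56, outside it) among the higher. The number off by more than 1.5-fold was again 19 when G1 cells alone were used, and 19 when cells over 10% mitochondrial UMIs were left out.

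The higher genes were led by RPS26, whose protein lies at the exit of the mRNA channel and whose loss causes Diamond-Blackfan anaemia. Its level was 453 CPM in CHLA9, with a 95% Poisson interval of 449.8 to 456, and 1129.6 CPM in TC71, with one of 1121 to 1138, a fold of 2.49 (chr12:56041351-56044697). RPS10, another small subunit gene of that disease, had 147 CPM (145 to 149) and 364 CPM (359 to 369), a fold of 2.48 (chr6:34417454-34426069). The paralog RPL22L1 had 39.6 CPM (38.7 to 40.5) and 97.7 CPM (95.2 to 100.3), a fold of 2.47. The 3 genes thus differed by almost the same factor although their levels were far apart. The other 3 were RPS21 (497 and 1021 CPM), RPL35 (978 and 2005 CPM), whose protein lines the end of the exit tunnel, and RPL36A (90.3 and 174 CPM).

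The lower genes were mostly of the large subunit, with 10 of the 13. RPL13A, which apart from the ribosome takes part in the silencing of inflammatory mRNAs, had 3898 CPM (3889 to 3907) in the CHLA9 library and 1982 CPM (1971 to 1994) in that of TC71, which is 1.97-fold lower (chr19:49487510-49493057). RPL23, one of the MDM2-binding proteins, had 1523 and 778 CPM and was 1.96-fold lower (chr17:38847860-38853764). RPL7 had 2901 and 1568 CPM, RPL27 1433 and 788 CPM, and RPL29 2718 and 1698 CPM, all 3 past 1.5-fold. The remaining large subunit genes of the 10 were past 1.5-fold lower only relative to the median member. RPL6 had 2594 and 1751 CPM, RPL23A, at the exit tunnel where the signal recognition particle docks, 1915 and 1325 CPM, RPL19 2838 and 1991 CPM, RPL30 2749 and 2107 CPM, and RPL8 2629 and 2186 CPM. With them stood the small subunit genes RPS4X (3436 and 2566 CPM) and RPS27 (2109 and 1666 CPM) and the paralog RPL39L. No small subunit gene other than RPS4X and RPS27 was on the low side of the band.

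The paralogs were few in UMIs and went in opposite directions from one another. RPL39L (chr3:187120948-187180908), the autosomal relative of the X-linked RPL39 and best known from male germ cells, stood at 122 CPM (120.1 to 123) in CHLA9 and at 64.9 CPM (62.8 to 67.0) in TC71, 1.88-fold lower. RPL39 itself had 1357 and 2295 CPM (log2 0.76, chrX:119786504-119791630), so the 2 genes of the pair differed between the libraries in opposite directions. RPL22L1 (chr3:170864875-170870208) was 2.47-fold higher in TC71 while RPL22, its parent, had 1741 and 1771 CPM (log2 0.02). RPL26L1 had 148 and 183 CPM (log2 0.31) beside 975 and 1306 CPM of RPL26 (log2 0.42). RPL7L1, a more distant relative of RPL7, had 300.6 and 266 CPM (log2 -0.18) beside the log2 of -0.89 of RPL7. The muscle paralog RPL3L had 49 UMIs in CHLA9 and 16 in TC71 (0.280 and 0.274 CPM), and the testis paralog RPL10L had 11 and 3 UMIs (0.0629 and 0.0514 CPM), so neither was compared.

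The coding sequences of RPL39 and RPL39L, read from GENCODE 44 transcripts on GRCh38, show how close the pair is. Both have 156 bases and 8 of them differ (94.9% identity), and these 8 are in capitals.
RPL39: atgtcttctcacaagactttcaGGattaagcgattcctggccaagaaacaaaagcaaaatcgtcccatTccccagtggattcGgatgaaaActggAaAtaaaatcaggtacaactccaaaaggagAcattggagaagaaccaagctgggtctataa
RPL39L: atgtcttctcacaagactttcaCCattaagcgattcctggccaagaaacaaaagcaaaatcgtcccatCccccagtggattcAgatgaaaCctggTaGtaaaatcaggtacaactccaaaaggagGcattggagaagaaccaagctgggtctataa
The other pairs were less alike, with identities of 89.3% for RPL10 and RPL10L, 84.2% for RPL26 and RPL26L1, 75.9% for RPL3 and RPL3L, 68.6% for RPL22 and RPL22L1 and 55.7% for RPL7 and RPL7L1. How reads that match both genes of a pair were counted was not tested, and the transcript ends, from which most reads of a 3' library come, were not compared.

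Near-identical copies are common in this family. Named pseudogenes were annotated for 78 of the 81 members compared, with a median of 13 and up to 133. Their number had a Spearman's rho of 0.145 with the distance from the median member and of -0.03 with the log2 difference itself, across 81 genes that are not independent. Exons of 7 members overlapped another counted gene on the same strand, RPL17, RPL26, RPL36 and RPS15A among them. Of the 7, RPS10 and RPL36A were among the higher genes of TC71, so their levels are uncertain. The readthrough gene RPS10-NUDT3 held 16 UMIs in CHLA9 and 18 in TC71, beside 25698 and 21234 of RPS10, and RPL36A-HNRNPH2 held 0 in both.

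Of the 5 ribosomal protein genes that the naming rule misses, 2 were past 1.5-fold higher in TC71 and 0 lower, with a median of 0.51. FAU, which encodes a small subunit protein fused to a ubiquitin-like domain, had 810 CPM in CHLA9 and 1596 in TC71 (log2 0.98). RPS27L, the paralog of RPS27, had 68.6 and 147 CPM (log2 1.101) where RPS27 itself had a log2 of -0.34. RPL36AL had 383 and 546 CPM (log2 0.51), and the small subunit scaffold RACK1 1927 and 1661 CPM (log2 -0.21).

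Other parts of the translation apparatus were counted for comparison. Of 20 non-ribosomal TOP and translation genes compared, 6 were past 1.5-fold higher in TC71 and 1 lower, with a median of 0.22. The highest were EIF4A2, an RNA helicase of initiation (146 and 306 CPM), and PABPC1, the poly(A)-binding protein (735 and 1425 CPM), and the lowest were EEF1D (631 and 419 CPM) and HNRNPA1 (1141 and 844 CPM). Of 39 ribosome biogenesis genes, 7 were higher and 6 lower, with a median of 0.11. These included UBTF, the RNA polymerase I factor (291 and 106 CPM), TSR1 (149 and 77.5 CPM), NOP10 (194 and 333 CPM) and LTV1, a small subunit assembly factor (60.3 and 131 CPM). Of 75 mitochondrial ribosomal protein genes, encoded in the nucleus but part of another ribosome, 16 were higher and 2 lower, with a median of 0.27. Beside the background of 16.3% and 31.1%, all 3 lists thus had fewer lower calls and a median above that of all genes, as the members did.

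Within each library the share fell from G1 to G2M cells. Phases were scored from marker genes with the ribosomal protein genes left out. In CHLA9 the members held 17.8% of the UMIs of 877 G1 cells, 17.4% of 1823 S cells and 16.1% of 1824 G2M cells. In TC71 they held 21.4% of 221 G1 cells, 20.0% of 750 S cells and 19.1% of 758 G2M cells. The drop from G1 to G2M was 1.73 percentage points in CHLA9 and 2.37 in TC71, both smaller than the 2.10 and 2.74 points of SD over all cells of the library in CHLA9 and TC71. Absolute counts went the other way: the median cell held 5101 member UMIs in G1 and 6617.5 in G2M in CHLA9, and 6293 and 6816.5 in TC71. Total UMIs rose more steeply, from 29031 to 40668.5 in CHLA9 and from 29014 to 36345 in TC71.

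**Figure D2:**
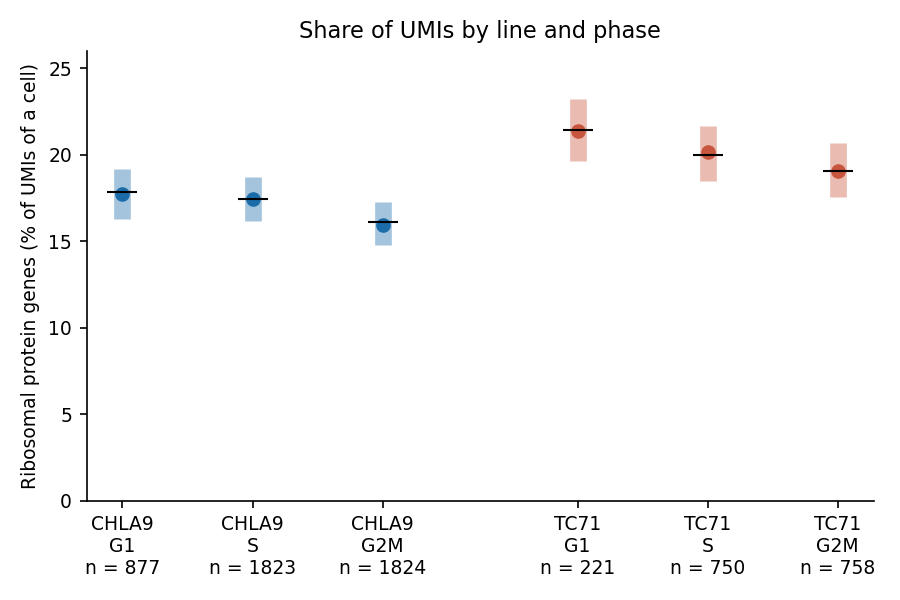
Percent of a cell's UMIs in ribosomal protein genes, by line and phase, with the number of cells under each; dots are medians over cells, bars the quartiles, and black lines the pooled share. The pooled share runs from 17.8% in G1 to 16.1% in G2M in CHLA9 and from 21.4% to 19.1% in TC71.

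The decline with the cycle was spread over nearly all members. In CHLA9, 47 of 81 members were more than 1.1-fold higher in G1 than in G2M cells, where 23.6% of 8826 genes were, and 1 was lower, where 33.4% were. In TC71, 63 of 81 were higher, where 18.2% of 8380 genes were, and 1 was lower, where 45% were. The median member differed by 0.15 on the log2 scale in CHLA9 and 0.17 in TC71, while the median gene had -0.03 and -0.10. With all UMIs as the total, 80 of 81 members stood above 0 in CHLA9 (45.1% of all genes) and 77 of 81 in TC71 (36.4%). Scaled to the UMIs outside the members and mitochondrial genes, 71 members were past 1.1-fold higher in G1 in CHLA9 and 71 in TC71. That scaling moves all genes of a library by the same amount, and the share of all genes called under it was not counted. From S to G2M the difference was smaller: 21 members were past 1.1-fold higher in S in CHLA9 (22.8% of all genes) and 4 in TC71 (14.1%), with 0 lower in either (28.7% and 32.1% of all genes).

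By subunit, 33 of 43 large and 12 of 31 small subunit genes were past 1.1-fold in CHLA9 (medians 0.16 and 0.12), and 34 and 26 in TC71 (medians 0.17 and 0.19). RPS26 had the largest mean difference, with 512 CPM in the G1 and 411 CPM in the G2M cells of CHLA9, and 1253 and 1050.2 CPM in those of TC71. RPL26L1 (169 and 144 CPM in CHLA9, 208 and 174 in TC71) and RPL19 (3071 and 2664, 2280.0 and 1876) followed. These 3 were thus higher in G1 in both libraries, by 0.21 to 0.32 on the log2 scale.

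A few members departed from this. In CHLA9, RPL39L had 106 CPM in G1 cells and 125 CPM in G2M cells (log2 -0.23), the only member called lower there, and 65.3 and 61.4 CPM in TC71 (log2 0.09). RPS20, a small subunit head protein, had 1538 and 1413 CPM in CHLA9 (log2 0.12) and 1301 and 1524 in TC71 (log2 -0.23), where it was the only one called lower. RPL7L1 had 319 and 309 CPM in CHLA9 and 257 and 275 in TC71. The 2 libraries thus gave these 3 genes opposite signs, with the difference between them not tested.

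**Figure D3:**
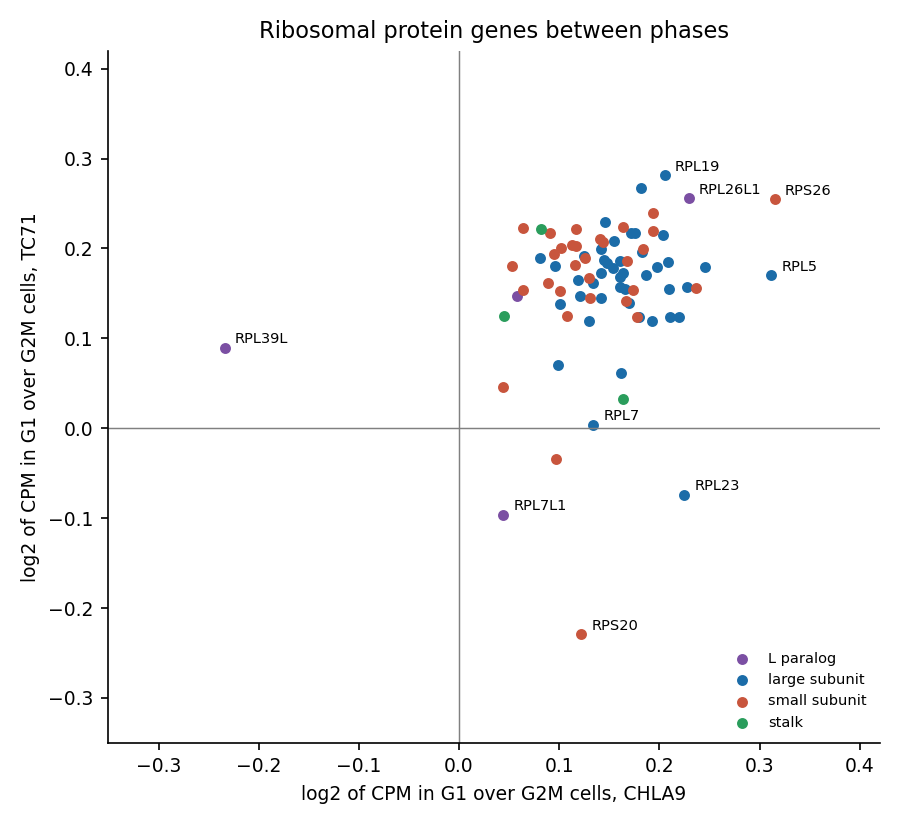
Log2 of CPM in G1 over G2M cells for each of 81 ribosomal protein genes, CHLA9 on the x axis and TC71 on the y axis, coloured by group. Most points lie in the upper right around the medians of 0.15 and 0.17, with RPL39L to the left of 0 and RPS20, RPL7L1 and RPL23 below 0.

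The same lists were read across the cycle. Of all genes, 23.6% were past 1.1-fold higher in G1 and 33.4% lower in CHLA9, and 18.2% and 45% in TC71. TOP and translation genes gave 11 of 20 higher in G1 and 0 lower in CHLA9 (median 0.15), and 8 higher and 2 lower in TC71 (median 0.12). Biogenesis genes gave 14 higher and 3 lower of 39 in CHLA9 (median 0.08), and 9 higher and 8 lower in TC71 (median 0.005). Mitochondrial ribosomal protein genes gave 13 higher and 13 lower of 75 in CHLA9 (median -0.00) and 26 higher and 0 lower in TC71 (median 0.11). Of these 3 lists, the TOP list had the median nearest to that of the members in both libraries. In TC71 this was 0.12 beside 0.11 for the mitochondrial list. The ribosomal protein genes outside the rule had medians of 0.10 in CHLA9 and 0.19 in TC71, beside 0.15 and 0.17 for the members.

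The share was lower in cells with more RNA. Against the UMIs of all other genes in the cell, the share had a Spearman's rho of -0.195 over 4524 CHLA9 cells and -0.235 over 1729 TC71 cells. These other UMIs hold no member UMIs but are part of the denominator of the share, which by itself pulls the rho under 0. With the cells cut into 5 equal groups by these other UMIs, the median share fell in CHLA9 from 17.4% in the lowest to 17.2%, 17.0%, 16.5% and 16.2% in the highest, while the median of other UMIs went from 20762 to 48224. In TC71 it ran 20.7%, 20.1%, 20.2%, 19.3% and 18.9%, from 15615.5 to 39123 other UMIs. Member UMIs rose with the other UMIs (rho 0.875 and 0.863) with a slope of 0.931 and 0.899 on log10 scales. A slope of 1 would be in proportion, and noise in the other UMIs would lower it. Phase moved along with content: G1 cells made up 41.1% of the lowest and 6.31% of the highest group in CHLA9, and 24.3% and 4.06% in TC71. Among G1 cells alone the rho of share with other UMIs was -0.240 and -0.207.

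**Figure D4:**
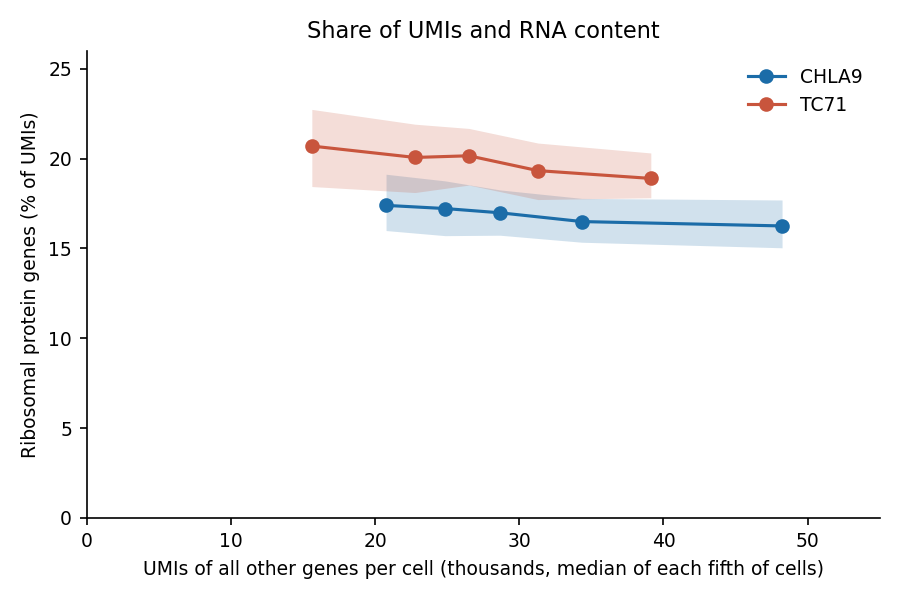
Median percent of UMIs in ribosomal protein genes in 5 equal groups of cells ordered by the UMIs of all other genes (x axis, in units of 1000 UMIs, median of each group), with shaded quartiles, for CHLA9 and TC71. The medians fall from 17.4% to 16.2% in CHLA9 and from 20.7% to 18.9% in TC71.

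Mitochondrial RNA had no common relation with the share. The rho of the share with the mitochondrial percent was 0.119 in CHLA9 and -0.322 in TC71. With mitochondrial UMIs taken out of the total the values were 0.252 and -0.153, so the signs of the libraries still differed. With the number of genes detected, which depends on depth, it was -0.232 and -0.372.

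At an equal 5000 UMIs per cell, the members moved together. Each member's UMIs had a median rho of 0.300 with the UMIs of the other members in CHLA9 and of 0.333 in TC71, and 78 of 81 were above 0 in each. Those at or under 0 were RPL22L1 (-0.02), RPL39L (-0.00) and RPL7L1 (-0.06) in CHLA9, and RPS20 (-0.20), RPL7L1 (-0.09) and RPL23 (-0.03) in TC71. The low paralogs have few UMIs at this depth: a UMI of RPL39L was seen in 45.3% of CHLA9 and 30.2% of TC71 cells, and one of RPL22L1 in 18.9% and 34.7%.

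The spread of single members was then measured within the total of a cell's member UMIs. The squared deviation of a member from its expected part, over the variance that multinomial sampling gives (1 for sampling alone), had a median of 1.09 in CHLA9 and 1.23 in TC71 over 81 members at 5000 UMIs per cell, where sampling takes much of the spread. At full depth the medians were 1.59 and 2.62, so members varied beyond sampling, and more so in TC71. At 5000 UMIs per cell, the highest means were those of RPS20 (1.17 and 2.15), RPL13A (1.33 and 1.64) and RPS2 (1.44 and 1.51). RPS20 in TC71 was the only value over 2 at that depth. Its part of the member UMIs of a TC71 cell had a 5th to 95th percentile range of 0.296% to 1.29%, against 0.587% to 1.17% in CHLA9, whereas RPS18 ranged from 2.62% to 4.12% in TC71 and from 1.98% to 2.87% in CHLA9.

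Among non-members, several abundant translation genes were among those that followed the ribosomal protein UMIs most closely. Over 2852 genes with a UMI in at least 20% of cells of both lines at 5000 UMIs, the highest mean rho was that of RACK1 (0.315 in CHLA9 and 0.423 in TC71), then EEF1A1, the elongation factor that brings tRNA to the ribosome (0.455 and 0.268), NACA, the nascent chain chaperone (0.265 and 0.423), and GAPDH of glycolysis (0.258 and 0.409). EEF1B2, FTL (ferritin light chain), TPT1, TMSB10 and FAU were also among the first 10, between 0.185 and 0.363. Of the 10, 4 were in the TOP list and 3 were ribosomal protein genes outside the rule. The TOP list as a whole was weaker, with medians of 0.09 in CHLA9 and 0.13 in TC71 over 20 genes. Of these, 14 were above 0 in both libraries, where 747 of all 2852 genes were. PABPC1 of this list stood at -0.00036 and -0.212. The median gene stood at -0.02 in both libraries.

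At the other end stood the mitotic genes CENPF (-0.459 and -0.326) and ASPM (-0.358 and -0.291), the nuclear RNA MALAT1 (-0.287 and -0.475) and the nuclear RNA-binding proteins SFPQ (-0.396 and -0.317) and HNRNPU (-0.312 and -0.393). Biogenesis genes had a median of -0.04 in both libraries over 29 genes, and mitochondrial ribosomal protein genes 0.01 and 0.05 over 65. The biogenesis medians lay close to those of all genes, and the mitochondrial ones lay above them. Above 0 in both libraries were 6 of the 29 and 37 of the 65, where 747 of all 2852 genes were. At this depth sampling takes more of the spread of genes with few UMIs. The UMIs of a cell thinned to one total compete with each other, so all of these values share the depth.

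Deviations of members from their expected part were then set against each other. Over all 2926 pairs of members with at least 100 CPM in both lines, the deviations of RPS20 and RPL23 were among the most alike (Pearson's r 0.209 over 4524 CHLA9 cells and 0.601 over 1729 TC71 cells). RPS20 with RPL13A (0.191 and 0.547) and RPL23 with RPL13A (0.241 and 0.415) were near them. A set of RPL13A, RPL27A, RPS20, RPL23 and RPL7, chosen after these values were seen, held 7 of the first 15 pairs by mean r. Its 10 pairs had a median r of 0.205 in CHLA9 and 0.331 in TC71, which describes the choice and is no test of it. Of the 10, 9 were above 0 in both, the exception being RPL7 with RPL27A (0.112 and -0.137). Thinned to 5000 UMIs, where sampling takes more of the spread, the medians were 0.04 and 0.12.

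**Figure D5:**
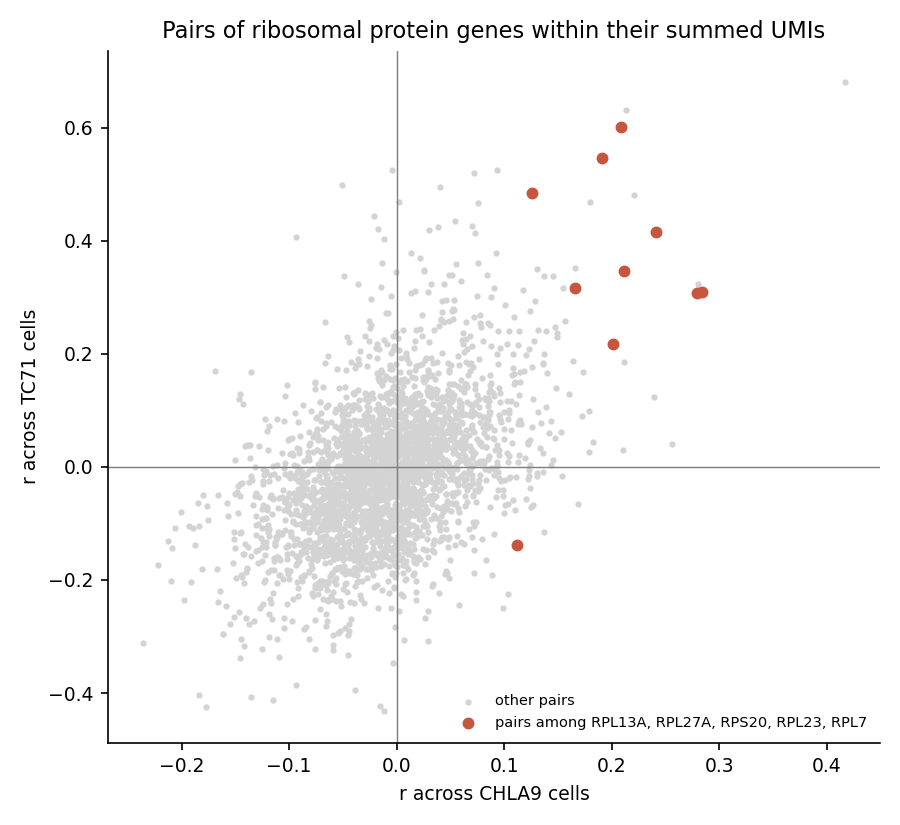
Pearson's r between the deviations of 2 ribosomal protein genes from their expected part of a cell's member UMIs, across CHLA9 cells (x axis) and TC71 cells (y axis), for each of 2926 pairs. The 10 pairs of RPL13A, RPL27A, RPS20, RPL23 and RPL7 (red, chosen after the values were seen) lie to the upper right, up to 0.284 in CHLA9 and 0.601 in TC71, except RPL7 with RPL27A at 0.112 and -0.137.

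The set took 6.73% of member UMIs in CHLA9 and 3.74% in TC71. In TC71 its part of a cell's member UMIs had a rho of 0.448 with the share of MALAT1, of -0.475 with the member share and of 0.297 with the mitochondrial percent. In CHLA9 the same values were 0.161, -0.03 and -0.00081. The member share itself had a rho of -0.301 with MALAT1 in CHLA9 and of -0.499 in TC71. Small nucleolar RNA genes, whose RNAs are cut from introns, lay within 4 of the 5 genes of the set and within 28 of all 81 members. They were SNORD32A, SNORD33, SNORD34 and SNORD35A in RPL13A, SNORD54 in RPS20, SNORA21 and SNORA21B in RPL23, and SNORA3A and SNORA3B in RPL27A, with none in RPL7. The part that RNA quality, nuclear RNA or depth had in these correlations was not tested.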

How the data were processed

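The deposited files hold raw counts of UMIs for each gene and barcode, made by the authors with Cell Ranger 3.1.0 on hg38 from 10x 3' v3.1 libraries and not normalized. There was 1 library for each of CHLA9 and TC71, so no test was made between the lines, and Cell Ranger's handling of reads that match several genes was left as deposited. Doublets were not called; cells of 20000 to 50000 UMIs were an alternative. UMIs were summed over kept cells and given as CPM with exact 95% Poisson intervals; intervals of shares are Clopper-Pearson, and neither kind covers more than counting error. From 10 CPM upward in a line or phase, genes were called past 1.5-fold between lines and 1.1-fold between phases.

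Seurat 5.3.0 (R 4.3.3) scored the phases of each library on genes in at least 10 cells, without the members. Thinning to 5000 UMIs used numpy 2.4.6 (seed 1) and served dispersion and the rho of genes across cells. Other values came from Python 3.11.15, scipy 1.17.1 and pandas 2.3.3. Coordinates and coding sequences are from GENCODE 44, matched by gene identifier for 83 of 83 members, and promoters from RefSeq on GRCh38.p14, matched by symbol for 66.

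The members and the lists were chosen with earlier results of these data known. Genes were named by rule: L paralogs, members more than 1.5-fold off the median member, the 5 most abundant, the 3 highest and 3 lowest between G1 and G2M, the 3 of highest dispersion, the 10 non-members that followed most and the 5 least, the 5 ribosomal protein genes outside the rule, and the 2 highest and 2 lowest of the TOP and biogenesis lists. Other genes named are examples chosen after their values were seen, and a few genes that the rule takes are not reported here. Of the 25 TOP genes 21 were matched, and 20 compared. The fold step between lines, the Poisson intervals and the dispersion formula were tested on simulated data. Phase scoring was not. Alternatives changed the cell filters, the scaling, the floor, the depth and the phase scoring.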

Additional observations from a re-analysis of the deposited data

Results flagged for a closer look

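Members whose G1 to G2M difference had opposite signs in the 2 libraries were RPL39L (log2 -0.23 in CHLA9 and 0.090 in TC71), RPS20 (0.12 and -0.23), RPL23 (0.23 and -0.074) and RPL7L1 (0.044 and -0.096). The difference between the libraries was not tested, since each line is 1 library. The rho of the member share with the mitochondrial percent also had opposite signs, 0.119 in CHLA9 and -0.322 in TC71, and this difference was not tested either.

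Barcodes that the filters removed held ribosomal protein UMIs as well. In barcodes under 5000 UMIs the members took 3.85% of UMIs in CHLA9 (277 barcodes, median 2530 UMIs) and 20.1% in TC71 (5869 barcodes, median 1170 UMIs), so the TC71 value is close to the 19.7% of its kept cells and the CHLA9 value is far under the 16.9% of its own. In barcodes over 15% mitochondrial UMIs they took 6.35% (181 barcodes) and 8.59% (601 barcodes), with median mitochondrial percents of 39.9 and 42.5. What these barcodes are was not tested.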

How the results depend on the processing

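Of the main values set against an alternative, 69 stayed within the limits set and 29 moved, with no change of sign. The 377 values for single genes also stayed within them, and 3 of these, all close to 0, changed sign: RPS20 between the lines (-0.02 by the median ratio and -0.07 at no more than 10% mitochondrial UMIs) and RPL7 between G1 and G2M in TC71 (-0.0073 with the members kept in the scoring). No paired analysis was possible because CHLA9 and TC71 had 1 library each. The share counted as moved when it left its counting interval, which is narrow at these totals. In CHLA9 it was 16.9% without cells past 3 median absolute deviations, 16.9% at no more than 10% mitochondrial UMIs, 17.0% as a mean over cells and 18.3% without mitochondrial UMIs. In TC71 it was 19.7%, 20.1%, 19.9% and 21.7% under the same settings and 19.7% with at least 10000 UMIs. The fall from G1 to G2M in CHLA9 was 1.71 points with phases scored on all genes, 1.71 in cells of 20000 to 50000 UMIs, 2.22 between the outer of 3 equal groups by G2M gene share, 1.79 without the outlying cells and 1.63 at 10% mitochondrial UMIs. In TC71 it was 2.45 with the members kept in the scoring, 2.14 on all genes, 2.31 at 5000 UMIs per cell, 2.52 with another seed, 2.16 between those outer groups and 2.69 at 10% mitochondrial UMIs.

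Scaled to UMIs outside the members and mitochondrial genes, 71 members were past 1.1-fold higher in G1 in CHLA9 in place of 47, 0 TOP genes in place of 1 and 1 mitochondrial ribosomal protein gene in place of 2 were lower in TC71. With at least 100 CPM, 4 biogenesis genes were higher in TC71 in place of 7 and 0 mitochondrial ribosomal protein genes lower, fewer genes being compared. Under the alternative scalings, 26 and 18 members were past 1.5-fold higher in TC71 and 6 and 7 lower. A change of scaling moves all genes of a comparison by the same amount, and the share of all genes called under it was not counted. Without mitochondrial UMIs in the total, the rho with the mitochondrial percent was 0.252 in CHLA9 and -0.153 in TC71. Among TC71 G1 cells, with mitochondrial UMIs kept in the total, it was -0.474. The median dispersion in TC71 was 2.62 at full depth, where sampling takes less of the spread. Of the 10 pairs of the set, 8 were above 0 in both libraries among G1 cells. The cause of the other shifts was not tested.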
